A study of Homo sapiens with 6 samples.

Results

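Axon guidance genes encode the cues and receptors by which cells attract, repel and sort one another: semaphorins with their plexin and neuropilin receptors, ephrins with Eph receptors, SLITs with ROBO receptors, and netrins with UNC5 receptors. The 68 protein-coding genes of these families in the deposited counts were chosen by name. Their symbols start with SEMA, PLXN, NRP, EPHA, EPHB, EFNA, EFNB, SLIT, ROBO, NTN or UNC5 and match a member of the family. There were 33841 listed genes, of which 16508 were protein-coding. Earlier results of these data were known when the families were chosen. RNA was sequenced from LN229, an established human glioblastoma cell line, grown in MEM with serum, in 2 groups: unmodified WT cells and PARP3-/- cells, in which the gene of the ADP-ribosyltransferase PARP3 had been disrupted by CRISPR/Cas9. Each group had 3 libraries, numbered as replicates 1 to 3. No drug or other agent was named for either group. Knockout lines were grown from single colonies, and the labels do not say which clone or clones were sequenced. Clone and genotype cannot be told apart.

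Many of these molecules act by contact. Ephrins and Eph receptors both sit in the membrane and signal in both directions, with class A ephrins held by a lipid anchor and class B ephrins spanning the membrane. Class 3 semaphorins are secreted and mostly bind neuropilins, while the semaphorins of classes 4 to 7 are mostly membrane-bound and contact plexins directly. In gliomas, guidance genes are known for roles in cell migration and invasion.

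The libraries held 29692065 to 46010369 assigned reads, and 3 counts, the floor used here, corresponded to 0.0673 to 0.0995 CPM, the read count scaled to a common library size. Replicate 1 of each genotype stood apart from the other replicates, and deviations from the genotype mean went together in libraries that shared a replicate number. The results below are therefore also given with the replicate number as a block in the model. PARP3 itself had 1273, 942 and 995 counts in WT and 574, 1004 and 736 in PARP3-/- cells, so its counts overlapped (log2 fold change −0.42, adjusted p = 0.307 by edgeR, and 0.0469 with the replicate block). The libraries could not be told apart by their PARP3 count, and genotypes are used here as labelled. The study reports deletions within PARP3 on both alleles of its LN229 knockout clones, and checked the absence of the protein by western blot. Of 10 glioma or astroglial markers, VIM, NES, CD44, SOX2 and OLIG2 were present, SOX9 was at or near 0 in every library and GFAP did not exceed 17 counts. The list summed to 5369 to 5793 CPM in WT and 5062 to 6032 CPM in PARP3-/- cells, mostly from VIM. S100B was lower (47.9% of WT) and SLC1A3 higher (202%), and with the block CD44, SOX2, OLIG2 and FABP7 (40.9% of WT) were lower as well. Leukocyte markers reached at most 0.0897 CPM in sum and endothelial markers 0.821. The neuron list summed to 55.5 to 117 CPM in WT and 61.6 to 95.7 CPM in PARP3-/- cells, mostly from SYT1. SNAP25 was also present, RBFOX3 had at most 1 count in any library, and no gene of this list was called. The fibroblast or mesenchymal list summed to 41.6 to 58.0 CPM in WT and 62.4 to 107 CPM in PARP3-/- cells, and the epithelial list to 148 to 171 and 107 to 126 CPM, with EPCAM and CDH1 at 3 counts or fewer. Within these lists COL1A2 was higher (248% of WT), while DCN (48.2%) and KRT8 (59.8%) were lower. The part of these lists in the results was not tested.

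Among the 68 genes, 55 had enough counts to be tested. By the quasi-likelihood F-test of edgeR, with p-values adjusted after Benjamini and Hochberg over the 17144 tested genes, 7 were lower in PARP3-/- cells at an adjusted p under 0.05 (EFNB1, EPHB2, EPHB3, PLXNA2, SEMA3B, SEMA4D and SEMA7A) and 5 were higher (EPHA5, NTNG1, SEMA4B, SEMA6B and SEMA6C). These were 12.7% and 9.09% of the tested guidance genes, against 3.33% and 1.36% of all tested genes. The median log2 fold change was −0.07 over the 55 genes and −0.01 over all tested genes. With the replicate block, 19 guidance genes were lower and 13 higher, against 12.5% and 11.8% of all genes, and all 12 genes above were among them in the same direction. At the stricter limits of an adjusted p under 0.001 together with a log2 fold change over 1 in size, EFNB1 and SEMA4D were lower and no guidance gene was higher, against 8 at an unadjusted p under 0.05 (edgeR placed 0.443% and 0.035% of all genes past the stricter limits). DESeq2, run as an alternative, gave 9 lower and 6 higher guidance genes against 3.84% and 2.09% of all genes, and edgeR on protein-coding genes alone 8 and 5 against 4.25% and 1.67%. When 1 library was left out, the number of guidance genes lower was 5 to 7, and the number higher was 0 without PARP3-/- replicate 2 or 3, 1 without PARP3-/- replicate 1 or WT replicate 3, 2 without WT replicate 2 and 3 without WT replicate 1. Without both libraries of replicate 1, 15 were lower and 10 higher, without those of replicate 2, 4 and 0, and without those of replicate 3, 2 and 0. Over all tested genes, 571 were lower and 234 higher in the main fit, and 281 to 606 and 49 to 259 when 1 library was left out. Without both libraries of replicate 1, 2 or 3 the counts over all tested genes were 1739 and 1536, 161 and 12, and 75 and 6. The libraries of the 2 genotypes did not overlap in 14 guidance genes that were lower and 8 that were higher, against 12% and 10.8% of all tested genes.

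**Figure D1:**
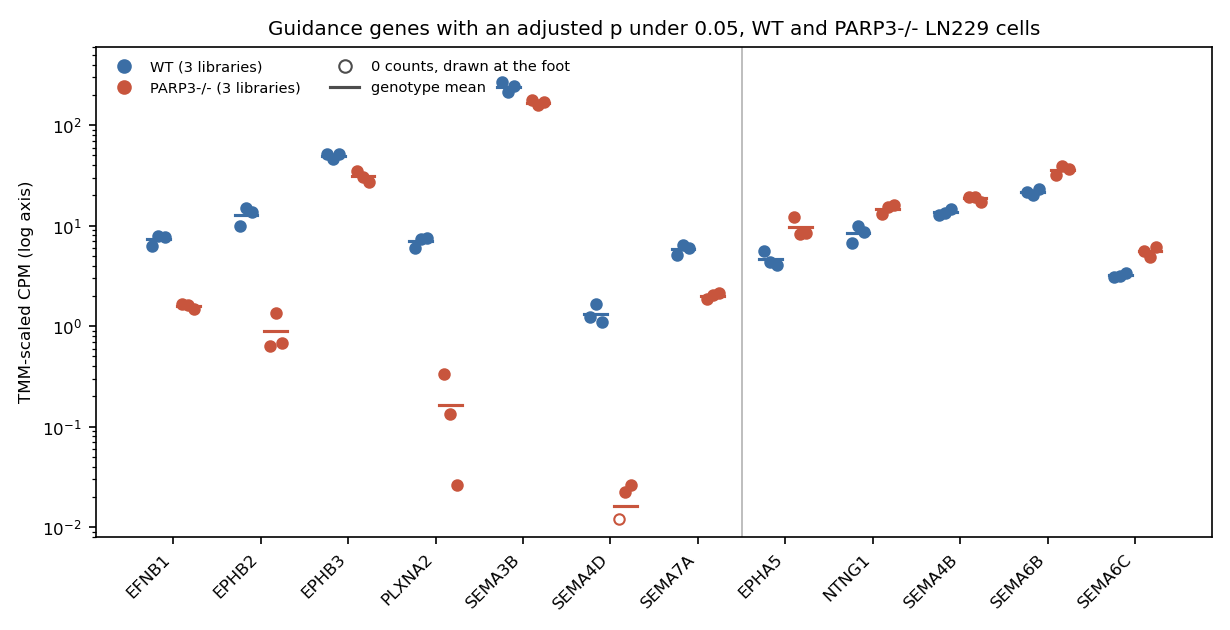
Each point is the level of one library in TMM-scaled CPM on a log axis, and each bar the mean of 3 libraries, for the 7 guidance genes that were lower (left of the line) and the 5 that were higher (right) in PARP3-/- cells. The genotypes did not overlap for any of the 12 genes, and SEMA4D had 0 or 1 count in each PARP3-/- library.

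The large differences lay in genes of modest level. Of the 12 genes, 6 differed by more than 1 on the log2 scale (5 lower and 1 higher), and their mean levels were at most 1.35 CPM per kilobase of exon, the measure used here to compare genes. Higher mean levels were seen in 32 other guidance genes. Of the 21 guidance genes above 5 CPM per kilobase, 2 were lower and 1 was higher, against 3.33% and 1.36% of all tested genes. The log2 fold changes of these 21 genes ran from −0.69 to 0.72. The abundant genes were EPHA2 (56.7 CPM per kilobase over all libraries), SEMA3B (35.6), SEMA3C (32.3), PLXNB2 (26.8), NRP1 (23.3) and ROBO1 (13.9).

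The promoters of the genes with the large differences are shown first, since these genes carry the contrast. Each is the stretch of 250 bases before 1 RefSeq transcription start (GRCh38.p14), written 5′ to 3′ on the strand of the gene. Matches to a GC box (GGGCGG or its reverse complement CCGCCC) or an E-box (CACGTG, its own reverse complement) are in capitals. EPHB2 and EPHA5 each had 2 starts listed, and 1 window is given for each. The counts of promoters below also use 1 window per gene. The windows lie at X:68828771-68829020 (plus strand) for EFNB1, 1:22710588-22710837 (plus strand) for EPHB2, 1:208244385-208244634 (minus strand) for PLXNA2 and 4:65670490-65670739 (minus strand) for EPHA5. EFNB1, EPHB2 and PLXNA2 fell and EPHA5 rose.
EFNB1: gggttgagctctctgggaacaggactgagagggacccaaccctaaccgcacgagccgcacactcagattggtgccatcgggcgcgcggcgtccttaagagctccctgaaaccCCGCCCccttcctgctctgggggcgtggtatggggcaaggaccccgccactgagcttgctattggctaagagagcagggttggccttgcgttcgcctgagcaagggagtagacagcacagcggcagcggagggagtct
EPHB2: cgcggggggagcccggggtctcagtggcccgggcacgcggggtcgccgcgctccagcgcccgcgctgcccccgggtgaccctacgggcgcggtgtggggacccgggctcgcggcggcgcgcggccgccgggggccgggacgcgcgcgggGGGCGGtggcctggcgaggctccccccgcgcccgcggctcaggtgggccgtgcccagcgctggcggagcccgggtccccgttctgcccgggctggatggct
PLXNA2: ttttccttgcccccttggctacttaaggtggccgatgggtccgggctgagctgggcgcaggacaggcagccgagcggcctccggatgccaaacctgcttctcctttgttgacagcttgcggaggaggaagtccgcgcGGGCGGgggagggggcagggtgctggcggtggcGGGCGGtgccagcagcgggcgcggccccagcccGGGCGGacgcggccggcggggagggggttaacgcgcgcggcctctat
EPHA5: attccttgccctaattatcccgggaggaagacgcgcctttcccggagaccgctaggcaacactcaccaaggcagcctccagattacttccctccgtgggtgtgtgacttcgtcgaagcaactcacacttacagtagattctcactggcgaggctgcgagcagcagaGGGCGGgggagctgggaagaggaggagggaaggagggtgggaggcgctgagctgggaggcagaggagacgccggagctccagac
The EPHB2 window was 84.8% G and C, above that of 99.5% of the 27305 promoters in the table, and held 42 CpG dinucleotides. PLXNA2 had 72.4% G and C and 3 GC boxes, while EFNB1 (63.6%) and EPHA5 (61.2%) each had 1 GC box, as did EPHB2. None of the 4 windows held the TATA box TATAAA on either strand. Of the 58 guidance genes with a promoter in the table, 43 (74.1%) had a GC box, against 42.3% of all promoters, and their median content of G and C was 66%, against 58%. An E-box was found in 4 of them (6.90%, against 6.49% of all promoters) and a TATA box in 1 (1.72%, against 11.1%). A GC box was present in 6 of 7 promoters of genes that fell and in 3 of 4 promoters of genes that rose. These counts include windows that lay wholly within the gene as listed. Such were SEMA3B, SEMA4D and SEMA7A among the genes that fell and SEMA4B among those that rose. The 58 windows of guidance genes hold others of this kind. The windows of SEMA4D and SEMA7A are not printed for this reason.

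The clearest family pattern, picked out after the values were seen, was in class B ephrins and EPHB receptors, which bind each other. All 7 tested class B genes had negative log2 fold changes, as did 51.3% of all tested genes. The genotypes did not overlap in 6 of the 7 class B genes (12% of all genes were lower without overlap), and 3 passed the test (42.9%, against 3.33% of all genes). With the replicate block, all 7 passed (12.5% of all genes did so in this direction). Among the 9 tested class A genes, none was lower (3.33% of all genes) and 1, EPHA5, was higher (11.1%, against 1.36% of all genes) without the block. With the block 2 were lower and 2 higher (22.2% each, against 12.5% and 11.8% of all genes). The median log2 fold change was −0.81 in class B and 0.01 in class A. The difference between the classes was not tested.

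EFNB1, a transmembrane ephrin (chromosome X, 68828997 to 68842147, hg38), had 229, 333 and 317 counts in the WT libraries and 50, 72 and 56 in the PARP3-/- libraries. All 3 knockout libraries were below all WT libraries. In CPM the level was 7.31 ± 0.907 in WT and 1.58 ± 0.0923 in PARP3-/- cells (SD over 3 libraries, as for all such values), and the log2 fold change was −2.20 (SE 0.15, adjusted p = 0.00058). EFNB3, another transmembrane ephrin, had 55, 40 and 47 counts in WT and 14, 2 and 8 in PARP3-/- cells, which did not overlap. Its log2 fold change of −2.42 (SE 0.57) did not pass the edgeR test (adjusted p = 0.0665), and it passed with the replicate block (adjusted p = 0.000709). Of the 6 edgeR fits that left out a single library, EFNB3 passed in 1, the fit without PARP3-/- replicate 1 (adjusted p = 0.0279). In the other fits its adjusted p was 0.0967 to 0.251. EFNB2, the most abundant class B ephrin, had 1535, 2589 and 2101 counts against 922, 1940 and 1652, which overlapped, and its log2 fold change of −0.39 passed only with the block (adjusted p = 0.365 without it and 0.00103 with it). EFNB1 made up 17.2% of the summed class B ephrin level in WT and 5.87% in PARP3-/- cells.

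EPHB2, a receptor tyrosine kinase for class B ephrins (chromosome 1, 22710839 to 22921500), had 360, 629 and 568 counts in WT and 19, 61 and 26 in PARP3-/- cells. The lowest WT library exceeded the highest knockout library several times over. The level fell from 12.9 ± 2.69 to 0.895 ± 0.411 CPM, a log2 fold change of −3.81 (SE 0.32, adjusted p = 0.00132). EPHB3, a receptor of the same class, was close to EPHB4 in level per kilobase of exon (8.93 against 8.61 CPM). By the median transcript length it was higher (83.3 against 44.1). EPHB3 had 1906, 1943 and 2106 counts against 1057, 1367 and 1035. Its level was 49.9 ± 3.18 and 31.0 ± 3.85 CPM, with no overlap and a log2 fold change of −0.69 (SE 0.11, adjusted p = 0.0163). The call for EPHB3 was lost without PARP3-/- replicate 2, PARP3-/- replicate 3 or WT replicate 3 (adjusted p = 0.0903, 0.0685 and 0.0901), and that for EPHB2 and EFNB1 held in all 6 such fits.

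The remaining tested EPHB receptors did not pass the test without the block. EPHB4, best known from blood vessels, had 2198, 2726 and 2616 counts in WT and 1301, 2311 and 1843 in PARP3-/- cells. Its log2 fold change was −0.39 (adjusted p = 0.0605, and 0.000329 with the replicate block). The CPM values of EPHB4 did not overlap between the genotypes. EPHB4 overlaps SLC12A9 on the opposite strand, which had 85.3% as many reads, and the strand setting of the counting was not given in the sources used here. EPHB1 had 46, 67 and 52 counts against 21, 38 and 30, a log2 fold change of −0.81 (adjusted p = 0.0737, and 0.012 with the block). EPHB6, a receptor without kinase activity, had at most 1 count in any library. The summed EPHB level was 21.9, 21.8 and 22.6 CPM per kilobase in WT and 14.6, 15.1 and 13.8 in PARP3-/- cells. The groups lay far apart relative to their spread. EPHB3 and EPHB4 held most of that sum, with 49.9% and 44.3% in WT and 47.2% and 51.4% in PARP3-/- cells. The share of EPHB2 in that sum was 4.67% and 0.49%.

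**Figure D2:**
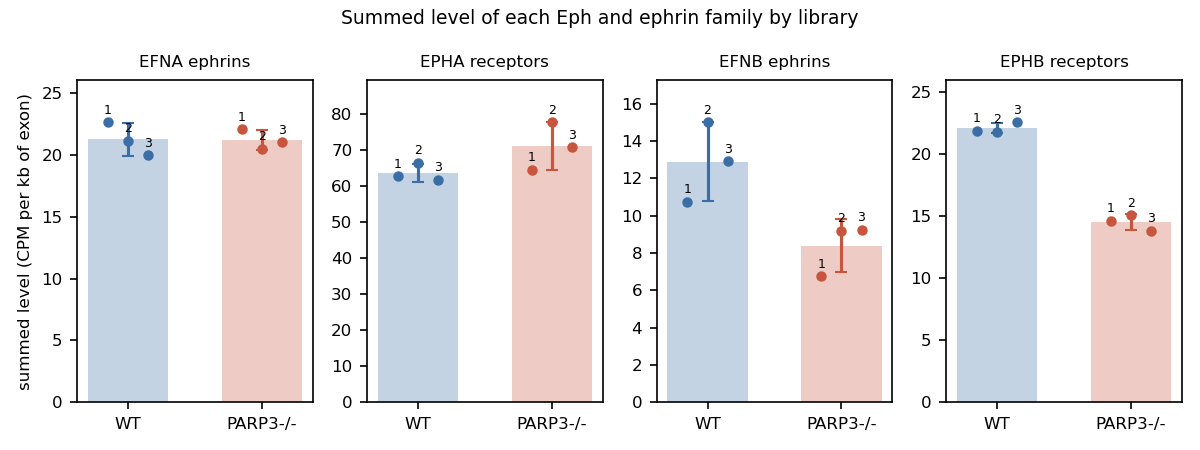
Bars give the mean and error bars the SD of the summed level (CPM per kilobase of exon, n = 3) of each Eph and ephrin family, and points the libraries, labelled by replicate number. The EPHB sum was 22.1 ± 0.43 in WT and 14.5 ± 0.64 in PARP3-/- cells, whereas the EFNA sums were 21.2 ± 1.34 and 21.2 ± 0.81. EPHB3 and EPHB4 made up most of the EPHB sum in both genotypes.

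Class A genes did not show this pattern. EPHA2, a receptor often high in glioblastoma, was the most abundant guidance gene per kilobase of exon. By the median transcript length, SEMA3C ranked above it (338 against 281 CPM per kilobase). EPHA2 had 7722, 9705 and 8360 counts in WT and 6704, 12692 and 9696 in PARP3-/- cells. Its log2 fold change was 0.24 (adjusted p = 0.358, and 0.0159 with the block). EPHA3, a receptor of the same class, had a log2 fold change of −0.44 (adjusted p = 0.291, and 0.0034 with the block). The class A ephrins EFNA1 and EFNA5, lipid-anchored ligands, had log2 fold changes of −0.11 and −0.07, neither past the threshold with or without the block.

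EPHA5, a receptor expressed mostly in the nervous system (chromosome 4, 65319563 to 65670495), rose. It had 203, 183 and 168 counts in WT and 366, 367 and 320 in PARP3-/- cells, and every knockout library was above every WT library. The level was 4.67 ± 0.779 and 9.61 ± 2.19 CPM, a log2 fold change of 1.04 (SE 0.20, adjusted p = 0.0353). EPHA5-AS1, a noncoding gene on the opposite strand that overlaps it, had 8, 9 and 11 counts against 18, 22 and 19, and without the strand setting reads of the pair cannot be assigned with certainty. The call for EPHA5 was kept without WT replicate 1 and lost without any other single library (adjusted p 0.052 to 0.162). EPHA1, EPHA8, EPHA10 and EFNA2 had at most 1 count in any library, and EPHA6 had 7, 10 and 20 counts in WT and 3, 5 and 5 in PARP3-/- cells, too few to be tested.

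Semaphorins, the ligands of plexins, moved in both directions, with 3 lower and 3 higher of 17 tested (17.6% each, against 3.33% and 1.36% of all genes), and 6 lower and 5 higher with the block (12.5% and 11.8% of all genes). The large decreases were in SEMA4D and SEMA7A. SEMA4D, a membrane-bound ligand of plexin B1 (chromosome 9, 89360787 to 89498130), had 45, 70 and 45 counts in WT and 0, 1 and 1 in PARP3-/- cells. With each knockout library set to the floor of 3 counts, it was at least 16.2-fold lower (adjusted p = 0.000927). Its WT level was low, at 1.33 ± 0.298 CPM. The pseudogene PA2G4P6, which lies within SEMA4D on the opposite strand, had 12, 13 and 10 counts against 6, 6 and 6. SEMA7A, a lipid-anchored semaphorin that binds plexin C1 and integrins (chromosome 15, 74409289 to 74434467), had 187, 268 and 248 counts in WT and 56, 91 and 80 in PARP3-/- cells. Its level fell from 5.85 ± 0.655 to 2.00 ± 0.133 CPM without overlap (log2 fold change −1.54, SE 0.15, adjusted p = 0.0021). Both calls held when any single library was left out.

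SEMA3B, a secreted semaphorin studied as a tumour suppressor (chromosome 3, 50267558 to 50277546), was the most abundant semaphorin by exon length. It had 9799, 8977 and 10041 counts in WT and 5379, 7004 and 6381 in PARP3-/- cells, and the CPM values did not overlap. The level fell from 242 ± 27.3 to 168 ± 10.6 CPM, a log2 fold change of −0.53 (SE 0.11, adjusted p = 0.0407). This call was kept without WT replicate 2 and lost without any other library (adjusted p 0.0583 to 0.187). By the median transcript length in the deposited table, SEMA3B ranked behind SEMA3C and SEMA3A among class 3 semaphorins. SEMA3C, a class 3 semaphorin of similar level per kilobase of exon, did not pass the test. It had 7939, 8381 and 7755 counts against 6095, 8372 and 7014 (log2 fold change −0.07, adjusted p = 0.792). The share of SEMA3B in the summed class 3 level was 47.9% ± 2.35 in WT and 38.9% ± 0.926 in PARP3-/- cells.

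Among the membrane-bound semaphorins, 3 rose. SEMA6B, a transmembrane semaphorin that binds class A plexins (chromosome 19, 4542593 to 4559808), had 793, 853 and 961 counts in WT and 967, 1754 and 1371 in PARP3-/- cells. Its level rose from 21.8 ± 1.55 to 35.9 ± 3.65 CPM (log2 fold change 0.72, SE 0.10, adjusted p = 0.0107), and its share of the class 4 to 7 level was 14.9% and 23.3%. The call was lost without PARP3-/- replicate 2 or PARP3-/- replicate 3 (adjusted p = 0.0535 and 0.0607). SEMA6C, a transmembrane semaphorin of the same class, had 113, 132 and 139 counts against 170, 216 and 233 (log2 fold change 0.79, SE 0.14, adjusted p = 0.0261). SEMA4B, a transmembrane semaphorin, had 470, 563 and 604 counts against 583, 863 and 656 (log2 fold change 0.45, SE 0.10, adjusted p = 0.0483). Neither gene overlapped between the genotypes in CPM, and both calls were lost whichever single library was left out, with adjusted p of 0.054 to 0.132 for SEMA6C and 0.0789 to 0.212 for SEMA4B.

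**Figure D3:**
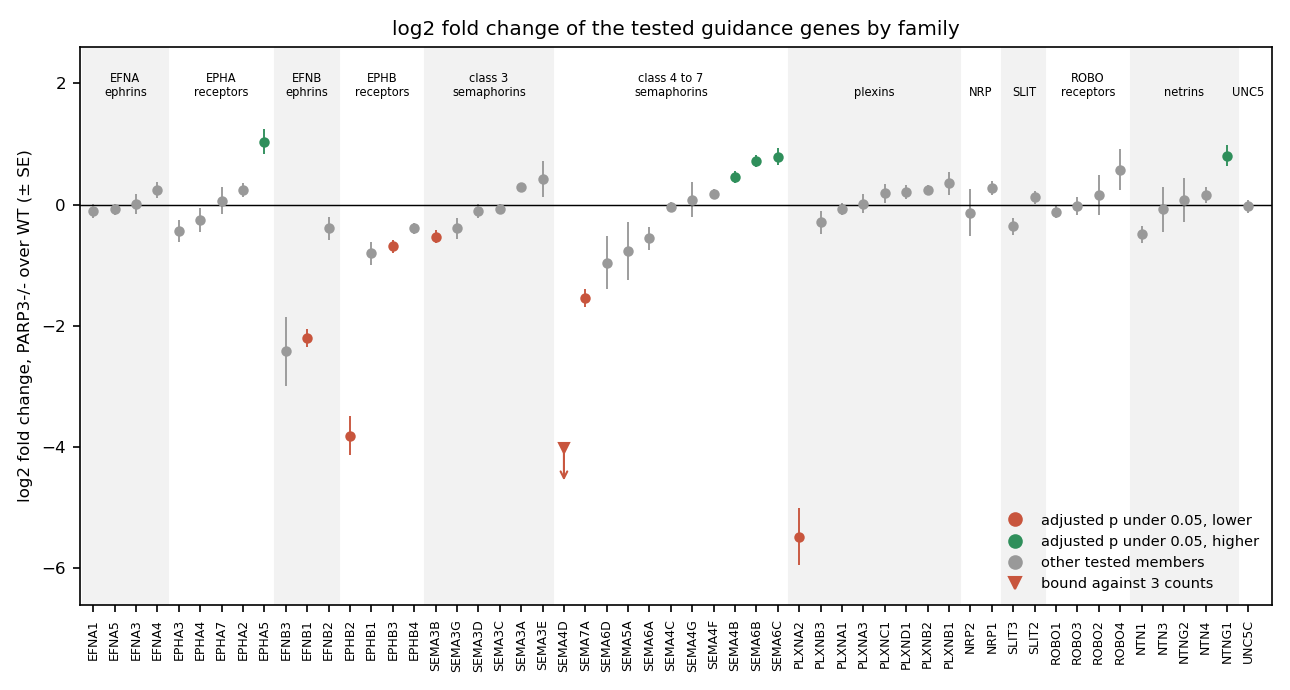
Log2 fold change of PARP3-/- over WT with its SE (edgeR, 3 libraries per genotype) for the 55 tested guidance genes, by family, with the genes at an adjusted p under 0.05 in colour. SEMA4D is drawn as a triangle at its bound against the floor of 3 counts, and all 7 class B ephrin and EPHB genes lie below 0.

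Among plexins, the semaphorin receptors, 1 of 8 tested genes was lower (12.5%, against 3.33% of all genes) and none higher, while with the block 2 were lower and 3 higher (12.5% and 11.8% of all genes). PLXNA2, a receptor of class 3 and class 6 semaphorins (chromosome 1, 208022242 to 208244320), had 221, 309 and 310 counts in WT and 10, 6 and 1 in PARP3-/- cells. It was thus near the limit of detection in the knockout libraries and readily counted in all WT libraries. The level fell from 6.99 ± 0.819 to 0.164 ± 0.155 CPM, a log2 fold change of −5.48 (SE 0.47, adjusted p = 0.00132), and the call held without any single library. PLXNA2 was a small part of the plexin RNA, with 0.93% of the summed level in WT and 0.02% in PARP3-/- cells. PLXNB2, the most abundant plexin, had 6373, 7756 and 7238 counts against 6016, 10125 and 7756 (log2 fold change 0.24, adjusted p = 0.202, and 0.00578 with the block). PLXNB1, the receptor of SEMA4D, had 3383, 2358 and 2872 counts against 3222, 3757 and 3306 (log2 fold change 0.35, adjusted p = 0.45, and 0.0025 with the block). PLXNC1, the receptor of SEMA7A, had a log2 fold change of 0.19 (adjusted p = 0.664) and was chosen as the partner of a gene that fell, after its values were seen.

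Neuropilins, the co-receptors of class 3 semaphorins, did not pass the test. NRP1, which also binds VEGF, had 8590, 11292 and 9234 counts in WT and 7839, 14404 and 11206 in PARP3-/- cells (log2 fold change 0.27, adjusted p = 0.307, and 0.00688 with the block). NRP2 had 3457, 1945 and 2590 counts against 2977, 1879 and 1701. Its 2 highest CPM values were those of replicate 1 in both genotypes, and its log2 fold change was −0.14 (adjusted p = 0.937, and 0.153 with the block). SEMA5A, a semaphorin with thrombospondin repeats, was singled out after its values were seen because it was also highest in replicate 1 of each genotype. It had 2778, 1226 and 1729 counts in WT and 1472, 840 and 734 in PARP3-/- cells. Within each replicate number the knockout library was lower, by 0.64, 0.63 and 1.12 on the log2 scale, and its log2 fold change of −0.76 passed only with the block (adjusted p = 0.525 without it and 9.37e-05 with it). SEMA3A, a secreted repellent shown for contrast, had a log2 fold change of 0.29 (adjusted p = 0.0659, and 0.00109 with the block), with close values in all replicates of a genotype.

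**Figure D4:**
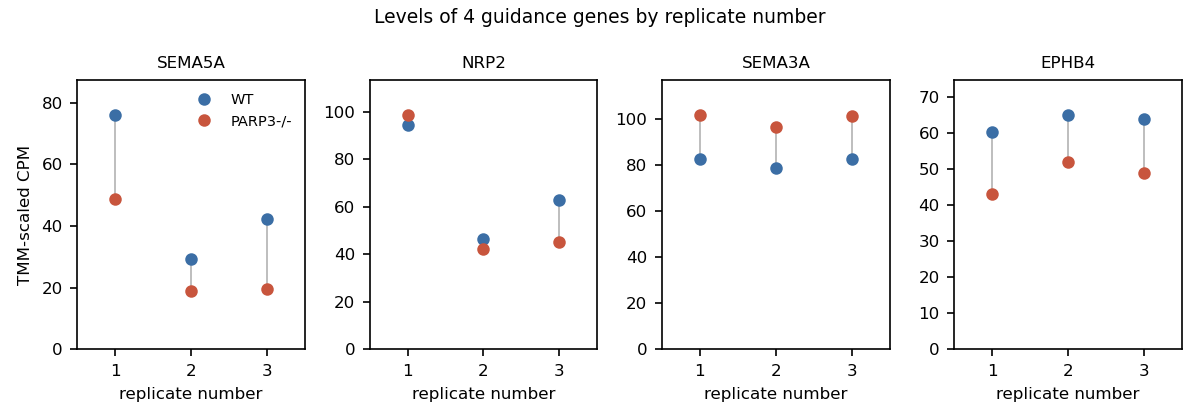
TMM-scaled CPM of 4 guidance genes by replicate number, with a line joining the WT and PARP3-/- libraries of the same number. SEMA5A and NRP2 varied widely with the replicate number, SEMA3A was higher and EPHB4 and SEMA5A were lower in the PARP3-/- library at each number, and NRP2 changed order at replicate 1.

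SLIT ligands and their ROBO receptors held no gene past the edgeR threshold among 6 tested, and 1, SLIT3, at an unadjusted p under 0.05 or with the block. Of all tested genes, 3.33% were lower and 1.36% higher at the edgeR threshold, and 12.5% and 11.8% with the block. At an unadjusted p under 0.05, 1548 of the 17144 tested genes were lower and 1240 higher. SLIT2, a secreted repellent, had a log2 fold change of 0.12 (adjusted p = 0.709). SLIT3, a ligand of the same family, had 183, 242 and 250 counts in WT and 118, 212 and 170 in PARP3-/- cells, without overlap in CPM (log2 fold change −0.35, adjusted p = 0.274, and 0.0318 with the block). ROBO1, the most abundant receptor of this pair of families, had 6344, 6214 and 6589 counts against 4878, 6256 and 5268 (log2 fold change −0.13, adjusted p = 0.638). ROBO3 had a log2 fold change of −0.02 (adjusted p = 0.975).

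Among netrins, 1 of 5 tested rose (20%, against 1.36% of all genes) and none fell, while with the block 1 was lower and 2 higher (12.5% and 11.8% of all genes). NTNG1, a lipid-anchored netrin that acts in synapse formation (chromosome 1, 107140007 to 107483458), had 244, 420 and 352 counts in WT and 390, 677 and 611 in PARP3-/- cells. Its level was 8.42 ± 1.67 and 14.8 ± 1.66 CPM without overlap (log2 fold change 0.81, SE 0.17, adjusted p = 0.0451). The call held without WT replicate 1 or WT replicate 2 and was lost without any other library (adjusted p 0.051 to 0.19). NTN4, a secreted netrin of basement membranes and the most abundant here, had a log2 fold change of 0.16 (adjusted p = 0.649, and 0.0472 with the block). The netrin receptor UNC5C had a log2 fold change of −0.03 (adjusted p = 0.956). UNC5B had 28, 11 and 9 counts in WT and 6, 0 and 0 in PARP3-/- cells and was too low to be tested.

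The genes that could not be tested numbered 13, of which 9 had 4 counts or fewer in every library (EFNA2, EPHA1, EPHA8, EPHA10, EPHB6, NTN5, PLXNA4, SLIT1 and UNC5A). At this depth no difference in them could be detected.

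Next, the position of each gene was compared with its neighbours, since a difference shared by a whole stretch of chromosome would appear there. DNA was not measured. The tested genes that are not guidance genes and start within 5 Mb of the 12 called genes had median log2 fold changes of −0.22 to 0.21. After subtraction of that median all 12 kept their direction, and 10 remained beyond 0.5 on the log2 scale. SEMA3B was an exception, since its 153 neighbours on chromosome 3 had a median of −0.22, so that its difference from them was −0.31. Of these neighbours 10 were lower, against 3.33% of all tested genes. Lower neighbours also lay around other called genes, with 5 of 36 for EFNB1 and 6 of 94 for SEMA7A. For PLXNA2 and EPHB2 they were 2 of 79 and 2 of 114. The edited gene PARP3 (chromosome 3, 51942345 to 51948867) lies within the same 5 Mb of SEMA3B. Whether the editing affected this stretch was not tested. SEMA4B was the other, with a neighbour median of 0.21 and a difference of 0.24. PLXNA2 and EPHB2 were below all of their 79 and 114 neighbours.

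**Figure D5:**
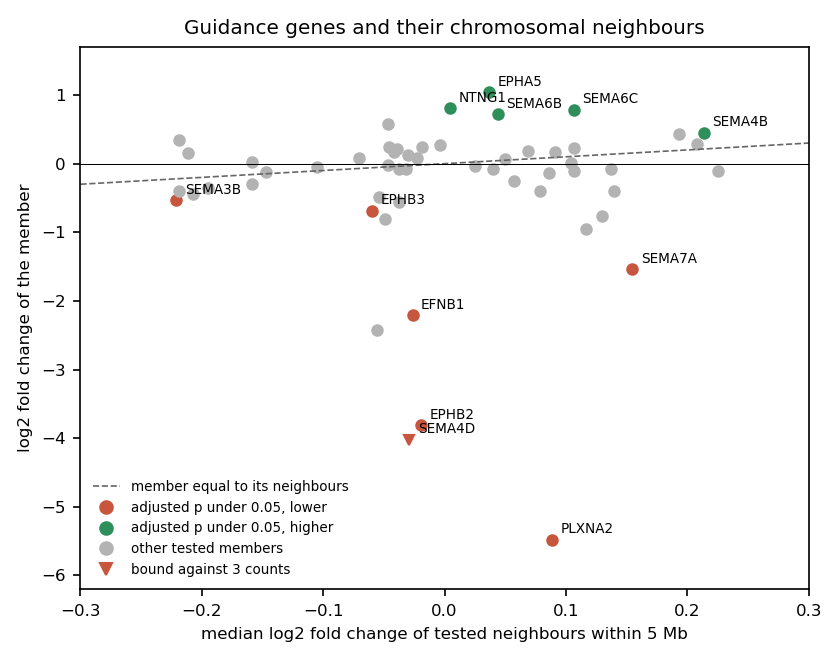
Log2 fold change of each tested guidance gene against the median log2 fold change of the tested genes within 5 Mb, with a dashed line where both are equal. The neighbour medians lie between −0.22 and 0.23, and EFNB1, EPHB2, PLXNA2, SEMA4D and SEMA7A lie far below the line.

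Further genes of the guidance pathways, from a list of 82 co-receptors and signal relays, were examined in the same fit. Of these, 70 were tested, 6 were lower (8.57%) and 3 higher (4.29%), against 3.33% and 1.36% of all genes, and the median log2 fold change was 0.06. Beyond the families above, the netrin receptor DCC had 175, 139 and 173 counts in WT and 45, 32 and 37 in PARP3-/- cells (log2 fold change −1.97, SE 0.29, adjusted p = 0.0117). RTN4R, the Nogo receptor, had 40, 50 and 55 counts against 10, 13 and 14 (log2 fold change −1.86, SE 0.21, adjusted p = 0.00417). Both receptors therefore fell without overlap. NEO1, a netrin and RGM receptor related to DCC, fell by 0.92 on the log2 scale (adjusted p = 0.0408), as did VAV3, an intracellular signal relay (adjusted p = 0.0366). SRGAP3, a GTPase-activating protein of the SLIT-ROBO pathway, fell by 1.36 (adjusted p = 0.025). FLRT2 and FLRT3, membrane proteins that bind UNC5 receptors, moved in opposite directions, with log2 fold changes of 0.95 (adjusted p = 0.0163) and −0.57 (adjusted p = 0.0195). GPC3, a cell-surface heparan sulphate proteoglycan, rose by 1.34 (adjusted p = 0.0211). These calls depended on single libraries, as did those over all tested genes. When 1 library was left out, 281 to 606 of all tested genes were lower and 49 to 259 higher, against 571 and 234 in the main fit. Without PARP3-/- replicate 3 or WT replicate 3, 1 gene of the list was lower and none higher, without PARP3-/- replicate 2, 2 and 0, without WT replicate 2, 2 and 1, without PARP3-/- replicate 1, 5 and 2, and without WT replicate 1, 6 and 3. With the replicate block, 8 genes of the list were lower and 19 higher (12.5% and 11.8% of all genes).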

How the data were processed

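Raw read counts per gene were deposited for 6 libraries (3 WT and 3 PARP3-/-). As far as the study's methods and the labels say, the authors trimmed reads with cutadapt (1.10), removed ribosomal reads with Bowtie2 (2.2.8), aligned to hg38 with STAR (2.5.3a) and made the deposited counts with HTSeq (0.6.1p1) on Ensembl 91. The methods describe a ribosome-depleted total RNA kit, while the labels give polyA RNA, and this was not resolved. The strand setting of the counting was not given in the sources used here. Not used were 12 normalized per-sample columns and 3 columns of the authors' own comparison (fold change and p-values).

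Counts were tested with edgeR (4.0.16, R 4.3.3) by quasi-likelihood F-test with TMM scaling, filterByExpr with a minimum count of 10, and genotype as the only term. A gene was called at a Benjamini-Hochberg adjusted p under 0.05 over 17144 tested genes, and all adjusted p-values in the text come from this tool. Tested on simulated data, both edgeR fits kept false calls within a limit that was looser than the nominal rate. DESeq2 (1.42.0) exceeded that limit, so calls that DESeq2 alone made are not used as support. The simulated libraries shared no deviations by replicate number. The simulation therefore cannot show the rate of false calls of either edgeR fit in the real libraries. Replicate numbers come from the labels. They were treated as pairs because the deviations of same-numbered libraries correlated across genes by over 0.1 in each pair, at 0.676, 0.517 and 0.242. Differently numbered libraries also correlated for WT 2 with PARP3-/- 3 (0.410) and WT 3 with PARP3-/- 2 (0.264), above the value of pair 3, so that beyond replicate 1 the pairing is not specific to the number. The replicate-block value is given beside each guidance gene named whose call it changed. The study describes the libraries as biological replicates of each genotype, all from 1 cell line and its knockout. The p-values therefore set the genotype difference against the spread between such replicates. They do not cover differences between clones. Floors cover counting error only.

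Level per length is TMM-scaled CPM per kilobase of merged exons (GENCODE 44, matched for 68 of 68 genes). RefSeq promoters matched 58 genes. Genes were named if called, if past the block with a log2 fold change beyond 1, if at most 3 counts in 1 genotype, or among the 2 of highest level in their family, with up to 8 from the further list. Promoters are printed for called genes with a log2 fold change beyond 1 whose window lies before the gene as listed, or overlaps it by at most 30 bases. Members, lists and tests were chosen with earlier results of these data known. Alternatives were DESeq2, RLE scaling, other filters, protein-coding genes alone, a stricter and an unadjusted threshold, the replicate block, and leaving out libraries.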

Additional observations from a re-analysis of the deposited data

How the results depend on the processing

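The counts of genes past the threshold depended on the model and the threshold. Main counts were 7 lower and 5 higher guidance genes, 6 and 3 of the further pathway list, and 571 and 234 of all tested genes. With the replicate block they were 19 and 13 guidance genes, 19 higher of the further list, and 2143 and 2023 of all genes. In the same block fit without the 2 libraries of replicate 1, an alternative chosen after seeing the data, they were 22 and 13, 25 higher of the further list, and 2649 and 2501. With DESeq2 the further list had 5 higher and all genes 871 lower and 475 higher. At the stricter limits (adjusted p under 0.001, log2 change over 1 in size) edgeR gave 2 and 0 guidance genes, 0 and 0 of the further list, and 76 and 6 of all genes. At an unadjusted p under 0.05 it gave 14 and 8 guidance genes, 10 higher of the further list, and 1548 and 1240. With a mean count of at least 50, 2 guidance genes were higher, 2 of the further list lower and 331 of all genes lower. Leaving out 1 library or both libraries of a replicate number gave 2 to 15 lower and 0 to 10 higher guidance genes, 0 to 6 and 0 to 20 of the further list, and 75 to 1739 and 6 to 1536 of all genes. Without both libraries of replicate 3, EFNB1 (adjusted p = 0.0552), EPHB2 (0.0637) and SEMA7A (0.111) missed the threshold in edgeR, SEMA7A also without replicate 2 (0.0715), while PLXNA2 and SEMA4D passed in every such fit. Signs changed in 4 genes that were not called: EFNA5 without WT replicate 1, NRP2 and UNC5C in 4 fits each and ROBO3 in 4, 1 of them the block fit without replicate 1 (log2 fold change 0.12). Over the fits that left libraries out, log2 fold changes were −0.12 to 0.0054 for EFNA5, −0.64 to 0.18 for NRP2, −0.12 to 0.15 for ROBO3 and −0.16 to 0.045 for UNC5C. Of 538 gene comparisons, 419 kept direction and side of the threshold, 65 lost it, 41 gained it and 13 changed sign. The block lost none of the 12 guidance calls. The causes were not tested. Depth limits the 9 genes with 4 counts or fewer everywhere.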

Other observations

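Noncoding genes named after guidance genes were listed 6 times and were left out of the counts above. EPHA5-AS1 was the only one past the threshold (log2 fold change 1.16, SE 0.24, adjusted p = 0.0465 by edgeR), with 8, 9 and 11 counts in WT and 18, 22 and 19 in PARP3-/- cells. SEMA6A-AS1 had 16, 19 and 14 counts against 18, 20 and 16 (adjusted p = 0.795). The other 4 had 5 counts or fewer in every library.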
